A study of Mus musculus with 2 samples.

Results

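Col1a1, Col1a2, Col3a1, Pdgfra and Twist1 are genes of embryonic mesenchyme, the loose tissue beneath the surface ectoderm and beside the neural tube. Their transcripts were selected by position, as every one whose mm9 locus overlapped 1 of 5 windows, and the genes themselves were chosen with earlier results of these data known. The windows held 13 transcripts at 5 loci, of 55418 transcripts at 24214 loci in the whole table. None of the 11 tested transcripts of these genes was called different between the 2 deposited conditions. Only 0.803% of all 29405 tested transcripts were called, so a count of 0 does not set these genes apart.

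The study sorted cells from embryos at embryonic day 9.5, at 21 to 25 somites, from matings of mTmG reporter mice with Grhl3-cre mice, both on a C57BL/6 background. Cells in which the Grhl3-driven Cre had acted carried membrane GFP and made up the non-neural ectoderm pool. The RFP-positive cells, in which it had not, made up the pool of remaining neural tube cells. Both pools came from trimmed neural tube tissue, with RNA combined from 25 embryos, and each gave 1 library. The reporter marks cells by past or present Cre activity, so GFP does not report Grhl3 at the moment of the sort.

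The deposited table names its conditions q2 and q1, which match no label of either pool. Every ratio below is therefore condition q2 over condition q1, and no value is assigned to the GFP-positive or the RFP-positive cells. The 2 columns of abundance per condition match no pool either and, by choice, were not used here. No expression level is therefore given, and ratios from high and from low abundance are not told apart. In sorted pools of this kind, fewer cells of a type and less RNA per cell cannot be told apart.

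Fibrillar collagens are the main rope-like proteins of connective tissue. The products of Col1a1 and Col1a2 assemble together into type I collagen, and that of Col3a1 forms type III collagen, which is common in embryonic and elastic tissue. Pdgfra encodes a receptor tyrosine kinase for platelet-derived growth factors that is widely used as a marker of mesenchyme, including cranial neural crest. Twist1 encodes a basic helix-loop-helix transcription factor of head mesenchyme, and mouse embryos without it fail to close the cranial neural tube. The comparison bears on whether transcripts of this underlying tissue were unequally represented in the sorted pools.

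The IDs in the table carry no gene names, and the reference tables list no IDs of this kind, so the names rest on position. Each locus was on the chromosome that carries the gene in GRCm38. For Col3a1 the locus spanned 38169 bases and for Twist1 2161 bases, and both spans equalled those of the RefSeq genes, when the table's starts were taken to count from 0. The Pdgfra locus spanned 45914 bases, or 99.98% of the GENCODE and 97.9% of the RefSeq gene. The Col1a2 locus spanned 35847 bases, or 97.6% of the GENCODE and 99.78% of the RefSeq gene. The Col1a1 locus was the least close, with 15587 bases against 16819 in both annotations.

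Of the 13 transcripts, 11 were tested by the authors and 2 were not. None of the 11 (0 of 11) carried a significance mark in the authors' deposited table, at a background of 0.803% of all 29405 tested transcripts, and 0 of the 11 had an unadjusted p-value under 0.05, at a background of 3.1%. The count was also 0 at q-values of at most 0.01 and 0.1, at backgrounds of 0.626% and 0.949%. The authors' deposited table gives 0.999983 as the q-value of every tested member. With 1 library per pool, this test by Cuffdiff compares 2 libraries and has no replicate check. Of the 11 log2 fold changes, 6 were positive and 5 negative. A single one was at least 2-fold, and also at least 4-fold, at backgrounds of 13.4% and 4.98% of tested transcripts with a finite ratio, and its error was far larger than its value. Their median was 0.088 and the median of their sizes 0.16, beside 0.0046 and 0.26 over all 28140 tested transcripts with a finite ratio. These sets differ in their errors, and a set with like errors is compared below.

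Dividing a log2 fold change by its test statistic gives, without the sign, the error that the test assigned to it, and intervals are 1.96 errors to either side. They cover the error that the authors' test assumed, not the spread between embryos or sorts. In every member with a nonzero test statistic, that statistic had the sign opposite to its log2 fold change. For Col1a1, as an example, it was -0.53 beside 0.16. Signs given here follow the deposited fold change, read as q2 over q1, and were not checked against the abundance columns. Col1a1 and Twist1 had 1 transcript each. For Col1a2, Col3a1 and Pdgfra the tested transcript with the smallest error is taken below as the closest measurement, a choice made after the values were seen.

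Among the collagens, Col1a1, which encodes a chain of type I collagen, was listed with the single transcript uc007kzn.1 on chromosome 11 from 94797584 to 94813170. This transcript stood at a log2 fold change of 0.16 ± 0.30 (error) in the authors' deposited table, and the interval ran from -0.43 to 0.76. Col1a2, whose product is the partner chain in the same fibre, was listed with 3 transcripts on chromosome 6 from 4455697 to 4491543. In the authors' deposited table its transcript uc009avm.1 stood at -0.12 on the log2 scale, the error was 0.29, and the interval ran from -0.69 to 0.45. The partner chains thus had ratios of opposite sign, 1.12-fold for Col1a1 and 1.09-fold the other way for Col1a2. The difference of Col1a1 minus Col1a2 was 0.28 with an error of 0.42, which is smaller than its error.

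Col3a1, which encodes the chain of type III collagen, was listed with 2 transcripts on chromosome 1 from 45368383 to 45406551. Its transcript uc007awq.2 stood at a log2 fold change of 0.25 ± 0.34 (error) in the authors' deposited table, the largest in size among the 5 transcripts measured most closely. This is a 1.19-fold ratio, and its interval ran from -0.43 to 0.92.

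Pdgfra, the growth factor receptor, was listed with 6 transcripts on chromosome 5 from 75548316 to 75594229, more than any other member. Its closest measurement was uc008xuc.1, at a log2 fold change of 0.088 ± 0.35 (error) in the authors' deposited table. The interval ran from -0.59 to 0.77. A second transcript, uc008xue.1, had the largest test statistic of the gene, at a log2 fold change of -0.72 ± 0.76 (error), and its interval ran from -2.22 to 0.78. The sign for Pdgfra therefore depended on the transcript, and neither value passed the authors' test. The table gives 1 position for the whole locus, so which exons set these transcripts apart is not stated here.

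Twist1, the transcription factor, was listed with the single transcript uc007niw.1 on chromosome 12 from 34642536 to 34644696. It stood at a log2 fold change of -0.21 ± 0.30 (error) in the authors' deposited table. The ratio was 1.15-fold in size, and the interval ran from -0.79 to 0.37.

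**Figure D1:**
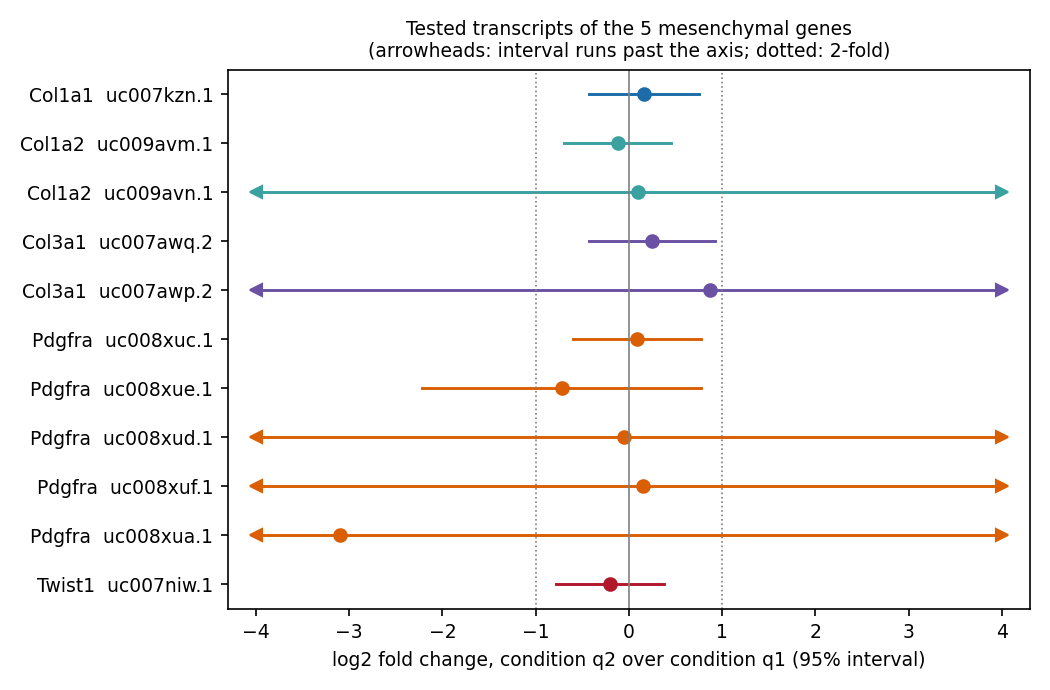
Log2 fold change (condition q2 over condition q1, horizontal axis) of each of the 11 tested transcripts, as points with 95% intervals as lines, 1 row per transcript and 1 colour per gene. In 5 rows, 1 per gene, the interval lies between the dotted lines at 2-fold; 5 other rows have intervals that run past the axis.

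All 5 of these closest measurements had intervals that held 0, and all 5 intervals lay within 2-fold in either direction. With Pdgfra uc008xue.1, its transcript with the largest test statistic, in place of uc008xuc.1, the Pdgfra interval still held 0 but ran past 2-fold, to -2.22. The signs of the 5 closest measurements were mixed, with 3 positive and 2 negative. In size they ran from 0.088 for Pdgfra to 0.25 for Col3a1.

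The other tested transcripts said little about their genes. For 5 of the 11 the error was over 4 log2 units. Among these, Col1a2 uc009avn.1 stood at 0.094 ± 13.5 (error) on the log2 scale, and Col3a1 uc007awp.2 at 0.87 ± 155 (error). Pdgfra uc008xua.1 had the largest fold change of all members, -3.10, with an error of 120, so its ratio of 8.57-fold in size has no measurable sign. Pdgfra uc008xud.1 and uc008xuf.1 had log2 fold changes of -0.053 and 0.16 with errors of 4.42 and 9.57. The untested transcripts were Col1a2 uc009avl.1 and Pdgfra uc008xub.1, and the authors' deposited table lists uc008xub.1 with a log2 fold change of 0.

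Errors differed widely among the 11 tested transcripts, with a median of 0.76, beside 0.89 over all 28140 with a finite ratio. The closest measurement of each gene was selected for its small error, so its place among all transcripts is a description only. For Col1a2 0.519% of tested transcripts with a finite ratio had an error as small or smaller, for Twist1 1.14%, for Col1a1 2.24%, for Col3a1 7.60% and for Pdgfra uc008xuc.1 8.24%. Among finite calls of the authors' deposited table, the smallest test statistic was 3.54 in size. At their own errors, a call would have needed at least a 2.05-fold ratio for Col1a2, 2.07-fold for Twist1, 2.11-fold for Col1a1, 2.33-fold for Col3a1, 2.35-fold for Pdgfra uc008xuc.1 and 6.53-fold for Pdgfra uc008xue.1. These values are cutoffs on the observed ratio, and they are not limits on the size of a true difference.

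Transcripts with a like error give the scale for these ratios. There were 2173 tested transcripts with an error between 0.29 and 0.35, the range of the 5 closest members, which are counted among them. Of these, 26 were called, or 1.20%, and 30 were at least 2-fold, or 1.38%. The calls were nearly all of one sign, with 25 positive and 1 negative. The median size of the log2 fold change was 0.12 in this set and 0.16 among the 5 closest members. The log2 fold changes of the set had quartiles of -0.13 and 0.10, so the middle of this set was spread less widely than the error assigned to each transcript. Col3a1 stood farthest out, and 19.3% of the set had a fold change of greater size. The share was 26.3% for Twist1, 36.2% for Col1a1, 48.2% for Col1a2 and 60.5% for Pdgfra uc008xuc.1.

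**Figure D2:**
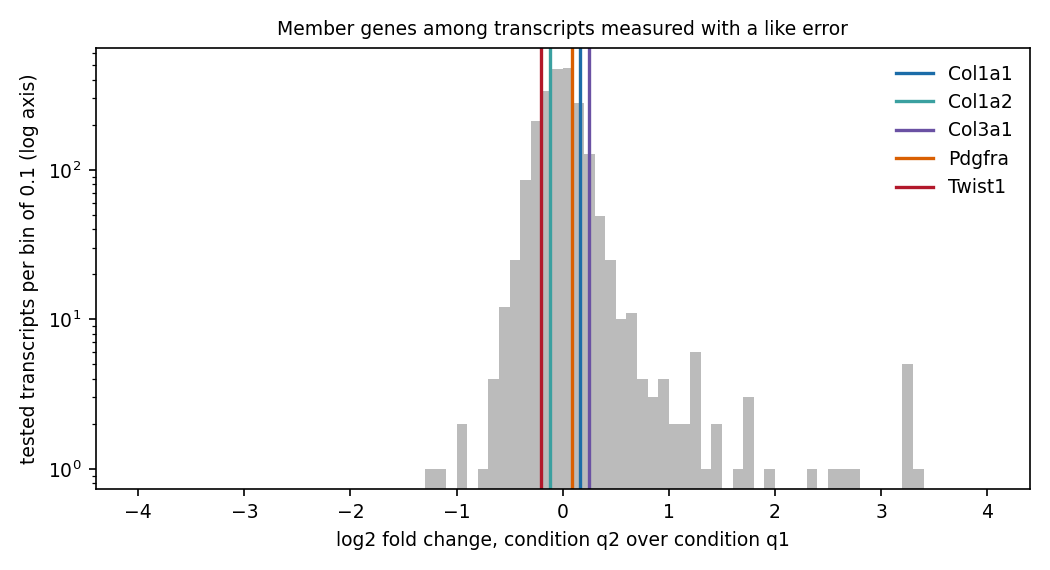
Number of tested transcripts (log axis) per bin of 0.1 in log2 fold change (condition q2 over condition q1) among the 2173 with an error between 0.29 and 0.35, with coloured lines at the closest measurement of each member gene (uc008xuc.1 for Pdgfra). All 5 lines lie between -0.21 and 0.25, and the set itself runs from -1.25 to 3.34. The lines of Col1a1, Col3a1 and Twist1 lie outside the set's quartiles of -0.13 and 0.10, and those of Col1a2 and Pdgfra lie between them.

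The members were also compared with each other, in 10 pairs of the closest measurements, with uc008xuc.1 for Pdgfra. The largest difference was Col3a1 minus Twist1, at 0.45 with an error of 0.45 and an interval from -0.44 to 1.34. The smallest was Col1a1 minus Pdgfra, at 0.073 with an error of 0.46 and an interval from -0.83 to 0.98. In 10 of 10 pairs the interval held 0. These errors treat the transcripts as independent, and an interval that holds 0 does not show that a pair of genes had the same ratio: the upper bounds reach past 2-fold in 7 of the 10 pairs.

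**Figure D3:**
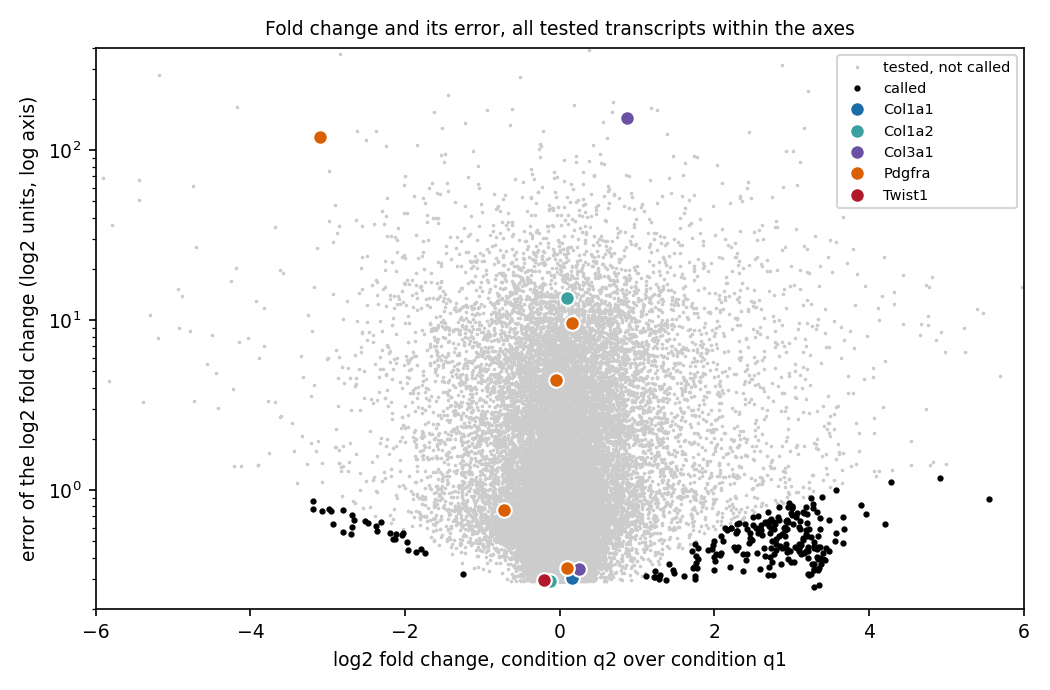
Error of the log2 fold change (log2 units, log axis) against the log2 fold change (condition q2 over condition q1) for the tested transcripts that lie within the axes, with called transcripts in black and the 11 tested members in colour. The closest measurement of each member gene sits at the bottom centre, between -0.21 and 0.25, away from the called transcripts on either side.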

How the data were processed

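RNA from 1 GFP-positive and 1 RFP-positive pool, 1 µg of total RNA each, was sequenced as TruSeq libraries, per the labels' protocols. Per the submitters' processing notes, TopHat 1.3.2, Cufflinks 2.0.2 and Cuffdiff were used with mm9. Cuffdiff's version, settings and transcript annotation were not given in the sources used here, and depth is unknown from the columns used. The authors deposited, for each transcript, a log2 fold change, a test statistic (a score), a p-value, a q-value, a status and a significance mark. The 2 per-condition abundance columns were matched to no pool and not used.

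Rows were selected by overlap with 5 mm9 windows. Printed starts are the table's plus 1. The members and lists were chosen with earlier results of these data known. The planned rule names, for each gene, the tested transcript with the largest test statistic, and every other member transcript is accounted for. Summaries, comparisons between genes and the histogram use the transcript with the smallest error instead, a choice made after seeing the data. It changes the transcript for Pdgfra alone among the 5 genes, from uc008xue.1 to uc008xuc.1. Members are described by the authors' calls, beside the share called among all tested transcripts, and no test was added. The arithmetic of the error calculation and the Benjamini-Hochberg adjustment (over the tested transcripts, as an alternative) were tested on simulated data. This does not check that the deposited test statistic is a fold change divided by its error. Markers of other cell types were not analysed here, because the IDs carry no names and mm9 windows were given for the 5 member genes only. No other genes were looked up by position to match q1 and q2 to the pools. Tables were read with pandas 2.3.3 and numpy 2.4.6 under Python 3.11.15, normal quantiles came from scipy 1.17.1, and figures were drawn with matplotlib 3.10.9.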

Additional observations from a re-analysis of the deposited data

How the results depend on the processing

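The count of 0 called member transcripts held in both directions at a q-value of at most 0.1, and so also at 0.01. It was 0 too after a Benjamini-Hochberg adjustment of the deposited p-values and with windows widened by 5000 bases. That adjustment called 236 transcripts in all, as the authors' mark did, and the widened windows held 13 transcripts, as the original ones did. These settings were therefore no separate check. The count was also 0 at an unadjusted p-value under 0.05, an alternative chosen after seeing the data. Counting fold changes whatever the test gave 1 negative transcript at 2-fold and 1 at 4-fold, which was Pdgfra uc008xua.1 with its error of 120 in both. When transcripts of every status entered, the fold changes were the same values. The setting of loci that list a single transcript, for Col1a1 and Twist1, left no other transcript to choose. Centring on the median of 0.0046 kept every sign, but that shift was too small to change one. Sign was thus hardly put to a test by these settings. Taking the transcript with the smallest error, chosen after seeing the data, turned Pdgfra to 0.088, against -0.72 by the largest test statistic, because it is another transcript. The calls over the whole table numbered 184 and 279 at the q-values of 0.01 and 0.1, against 236. The pseudocount settings were not run, since the abundance columns were not used. No replicate could be left out, and no paired analysis was possible because each pool gave 1 library.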

Other observations

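Transcripts within 500 kb of the 5 loci were read by ID and position, since they have no names here. There were 44 such loci, with 61 tested transcripts that had a finite ratio. Of these, 0 were called in the authors' deposited table, at a background of 0.803%, and 2, or 3.28%, had an unadjusted p-value under 0.05, close to the background of 3.1%. Both lay near Col1a1 on chromosome 11, at loci that adjoin each other but not Col1a1. The locus of uc007kzr.2, from 94852526 to 94868212, lies between them and Col1a1. Transcript uc007kzt.1, from 94871193 to 94887401, stood at a log2 fold change of 1.10 ± 0.31 (error), and its q-value in the authors' deposited table, 0.0580, was just short of a call. Transcript uc007kzu.2, from 94887572 to 94902685, stood at 1.12 ± 0.47 (error), and the same table gives it a q-value of 0.819. Col1a1 itself was at 0.16 ± 0.30 (error). Whether the differences between these transcripts and Col1a1 exceed chance was not tested.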
